A study of Mus musculus with 70 samples.

Results

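The 41 genes described here carry out DNA replication and were picked by gene symbol from the 21859 mouse genes of the deposited table. No measured value entered the rule, but the genes were chosen with earlier results of these data known. The 41 genes fall into 7 roles. Licensing of origins is covered by 11 genes (Orc1, Orc6, Cdc6, Cdt1, Gmnn and Mcm2 to Mcm7) and helicase activation by 5 (Mcm10, Cdc45 and Gins1 to Gins3). The polymerases and primase give 6 (Pola1, Pola2, Prim1, Prim2, Pold1 and Pole), and the clamp, its loader and the lagging strand 7 (Pcna, Rfc3, Rfc4, Rfc5, Rpa2, Fen1 and Lig1). Nucleotide supply gives 5 (Rrm1, Rrm2, Tyms, Tk1 and Dut), G1/S regulators 4 (Ccne1, Ccne2, E2f1 and E2f2) and chromatin 3 (Chaf1b, Uhrf1 and Slbp).

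In G1 phase the origin recognition complex, Cdc6 and Cdt1 load the MCM helicase on DNA, and geminin (Gmnn) blocks Cdt1 once S phase has begun. Cdc45, the GINS complex and Mcm10 then switch the helicase on, and polymerases held by the PCNA clamp copy the strands with nucleotides made by ribonucleotide reductase. Most of these genes are transcribed by E2F factors when cells enter the cycle and are held down in cells that have left it, as senescent cells have for good.

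Messenger RNA was sequenced in bulk in 70 libraries from male C57BL/6 mice, in 26 groups of 2 or 3 libraries. Doxycycline turned on a constitutively active MEK1 of frog origin (caMEK1), for oncogene-induced senescence through ERK, or a constitutively active MKK6 of human origin (caMKK6), for stress-induced senescence through p38. Mouse embryonic fibroblasts (MEFs), grown from whole E13.5 embryos without head and viscera, were sampled without doxycycline at day 2 and with 2 µg/mL at days 2, 4 and 7. There were 3 libraries per kinase and day. No MEF library without doxycycline came from day 4 or 7, so these days were compared with untreated cells of day 2. Kinase and time in culture cannot be told apart at days 4 and 7, and no MEF library on doxycycline lacked a kinase. Hepatocytes and colon epithelial cells were sorted from chimeric mice, in which mCherry marks cells that can carry the kinase and GFP the cells around them.

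Each tissue gave 23 libraries in 9 groups. For the genotypes control, caMEK1 and caMKK6 these were GFP cells without doxycycline, and GFP and mCherry cells at day 7 of doxycycline. Control mice carry both colours and no active kinase. Doxycycline was given in water, at 0.2 mg/mL to the caMEK1 animals. The caMKK6 and control animals got 2 mg/mL, so kinase and dose cannot be told apart in the tissues. The promoter driving the transgenes and the age of the mice were not given in the sources used here. No label says that MEF replicates are separate cultures, so p-values measure only the spread between these libraries, which may be technical.

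Levels are the authors' FPKM, fragments scaled to gene length and to library size, and can be compared between genes because they are per length. Differences are log2 ratios of FPKM + 1 with their standard error, from 1 fit of limma per tissue, and a gene is called where its p, adjusted by Benjamini and Hochberg over all genes tested, is below 0.05. The + 1 understates the change of genes with low levels. Depth was 10888915 to 17763531 reads per MEF library, 9267318 to 14534256 in liver and 6671204 to 17396973 in colon. All 6 fibroblast markers reached 1 FPKM in every MEF library. So did 6 of 6 hepatocyte markers in every liver library and 6 of 6 colon epithelial markers in every colon library. In liver the hepatocyte list summed to 27438 to 102783 FPKM, 6 endothelial markers to 16.1 to 149 and 6 macrophage markers to 8.33 to 333. The part of these other cells in the liver levels was not tested. Several libraries stood apart by their reporters. Of 12 caMKK6 MEF libraries 5 listed 10.96 to 16.5 FPKM of the MEK1 transgene. The GFP libraries of control livers on doxycycline listed 678 and 750 FPKM of mCherry RNA, and in liver caMEK1 mCherry cells the MEK1 transgene reached only 5.55 to 14.1 FPKM. In the colon of caMKK6 animal 4 the mCherry library listed 179 FPKM of EGFP and the GFP library 116 FPKM of the MKK6 transgene.

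The summed level of the 41 genes separated the sources. It was 270.4 to 860.2 FPKM in MEFs with a median of 528.5, 188 to 471 in colon with a median of 392.2, and 23.3 to 55.8 in liver with a median of 41.6. Of the 41 genes, 38 to 40 reached 1 FPKM in a MEF library, 39 to 41 in a colon library and only 7 to 21 in a liver library. The ribonucleotide reductase subunit Rrm2 was the most abundant in MEFs at a mean of 77.6 FPKM, followed by Pcna at 53.0 and Mcm4 at 31.2. Colon epithelium was led by Pcna at 29.1 and Mcm6 at 24.9. Hepatocytes were led by Mcm10, at 4.63 FPKM, ahead of Pcna at 3.83 and Mcm7 at 2.49. E2f2 was lowest in MEFs at 0.371, Gins3 in colon at 1.62 and Orc1 in liver at 0.014 FPKM.

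**Figure D1:**
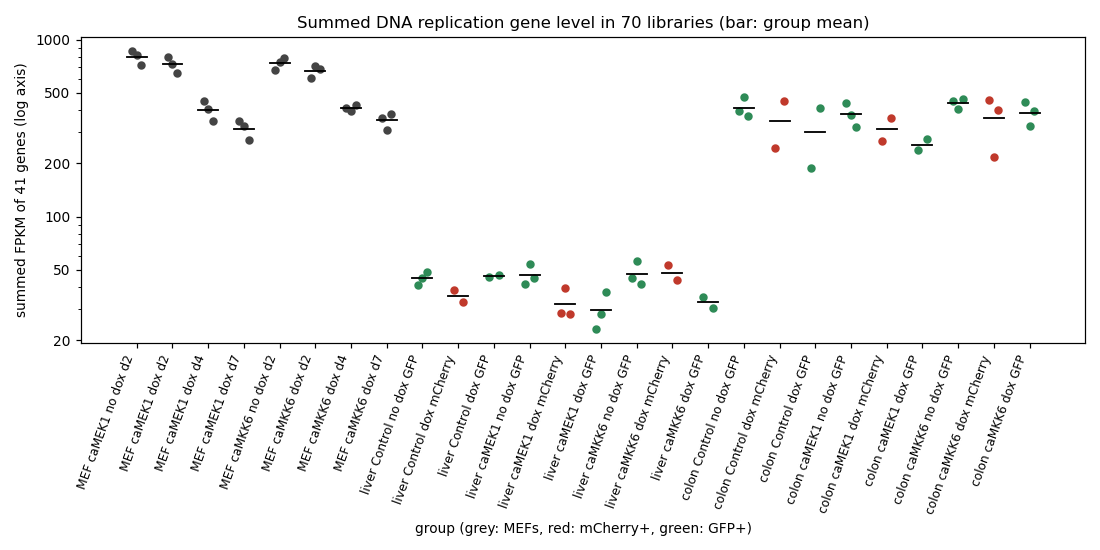
Summed FPKM of the 41 genes in each of the 70 libraries on a log axis, by group, with points for libraries (grey for MEFs, red for mCherry and green for GFP cells) and bars for group means. MEF groups step down from day 2 to day 7 of either kinase, and every liver library, at 55.8 FPKM or less, lies below every colon library, at 188 or more.

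In MEFs nearly every replication gene fell by day 7 of either kinase. The summed level in caMEK1 cells was 801 ± 71.7 FPKM (SD, n = 3) when untreated. It was 723 ± 73.8 on day 2, then 401 ± 51.8 on day 4, and 314 ± 39.5 by day 7. Under caMKK6 it went from 733 ± 59.2 to 666 ± 53.8, 411 ± 17.6 and 349 ± 37.8 on the same days. The drop lay mostly between days 2 and 4. In bulk RNA, fewer cycling cells and less RNA per cell cannot be told apart.

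By count, 1 member rose and 38 fell of 40 tested at day 7 of caMEK1, in a comparison that called 62.1% of all genes (33.4% higher, 28.7% lower). Their median difference was -1.22, against 0.03 over all genes, and the median member stood at 38.2% of its level without doxycycline. Under caMKK6 0 rose and 39 fell, where 40.8% of all genes were called (16.8% higher, 24% lower), with a median of -0.98 and a median level of 45.7%. E2f2 was under the filter of 1 FPKM in 3 libraries and was not tested. At day 7 the doxycycline group lay wholly below the untreated one in 38 of 40 members under caMEK1, against 31% of all genes tested, and in 39 of 40 under caMKK6, against 25.9%.

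At day 2 few members had moved. Under caMEK1 1 rose and 4 fell, where 39.3% of all genes were called (19.5% higher, 19.8% lower), and under caMKK6 0 rose and 6 fell (39.2% of all genes, 14.3% higher and 24.8% lower). The 4 were Orc1, the largest subunit of the origin recognition complex, the DNA ligase Lig1, Rrm1 and Rrm2, of which Lig1 was lost without untreated replicate 1 or 2 or day 2 replicate 3. Rrm1 and Rrm2 were also among the 6 of caMKK6, with Gins2, Pola1, Pold1 and Tk1. With a replicate block within genotype the counts at day 2 were 13 for caMEK1 (2 rose, 11 fell) and 17 for caMKK6 (1 rose, 16 fell). Leaving out the caMKK6 libraries listing the MEK1 transgene left 1 untreated and 1 day 2 library, and fewer members were called. The caMKK6 count at day 2 was 2 without replicate 3 of the untreated cells or without replicate 1 of day 2. For caMEK1 at day 2 it was 9 without untreated replicate 3 and 8 without replicate 1 of day 2. Scaling to a common median left 3 higher and 2 lower for caMKK6 at day 2, and quantile normalization 1 higher and 3 lower.

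At day 4 the fall was broad. Under caMEK1 1 member rose and 38 fell (57.8% of all genes called, 28.5% higher and 29.3% lower, median -0.95), and under caMKK6 0 rose and 37 fell (44.8%, 17.1% higher and 27.7% lower, median -0.76). Orc6 was not called at day 4 of either kinase, nor were Gmnn and the primase subunit Prim2 under caMKK6. Compared directly, day 4 lay below day 2 in 35 members under each kinase, against 31.3% of all genes called in that step under caMEK1 (16.2% higher, 15.1% lower) and 16.2% under caMKK6 (7.39% higher, 8.8% lower). Without the libraries listing the MEK1 transgene fewer members were called under caMKK6 at day 4, from day 2 to day 4 and at day 7. That omission left 1 untreated and 1 day 2 library, so the lower counts cannot be told apart from the loss of libraries.

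From day 4 to day 7 the decline slowed. Mcm3, Mcm4, Mcm5, Rrm1 and Rrm2 fell further under caMEK1 (5 members, with 2.16% of all genes called higher and 1.45% lower, 3.6% in all) and Cdc6 and Rrm1 under caMKK6 (2 members, 1.94% and 1.06%, 3% in all). With the replicate block within genotype these counts were 23 and 17. The caMEK1 count was 1, 2, 2, 3 and 3 without single libraries of day 4 (replicates 1 and 2) or day 7 (replicates 1, 2 and 3), and 8 without replicate 3 of day 4. The caMKK6 count was 0 without replicate 1 or 2 of day 4, replicate 1 of day 7 or the libraries with the MEK1 transgene, 1 without replicate 3 of either day, and 4 without replicate 2 of day 7.

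**Figure D2:**
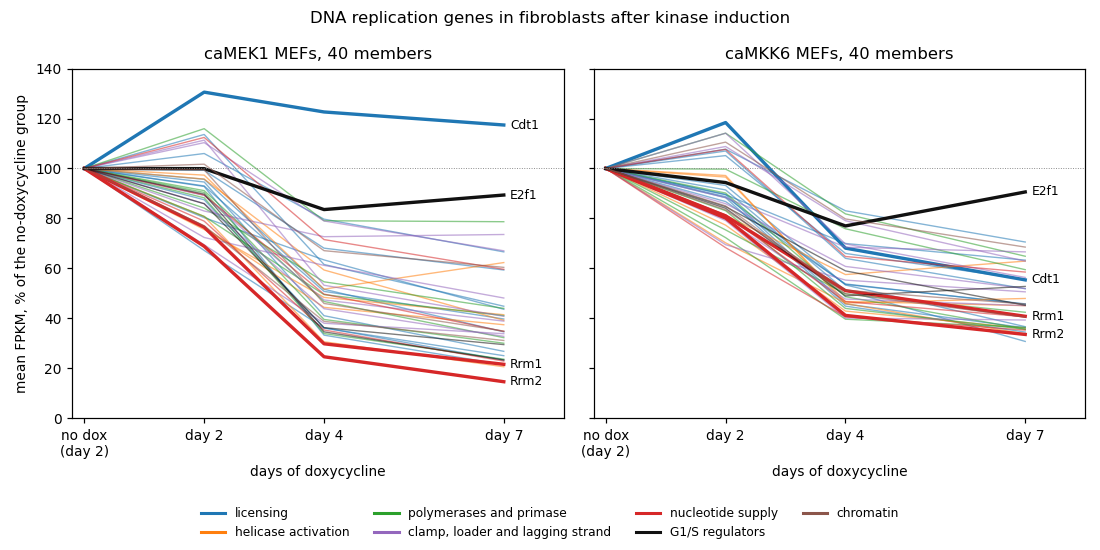
Mean FPKM of each of the 40 tested genes in caMEK1 (left) and caMKK6 MEFs (right) as a percentage of the group without doxycycline, against days of doxycycline, with 1 line per gene coloured by role. Rrm2 ends lowest under caMEK1 at 14.6%, Cdt1 stays above 100% there but not under caMKK6, and E2f1 ends near its starting level under both.

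Nucleotide supply had the lowest median of the 7 roles. All 5 members fell at day 7 of both kinases, with a median of -1.85 under caMEK1 and -1.24 under caMKK6. Rrm2, the S-phase subunit of ribonucleotide reductase, read 134, 135 and 120.2 FPKM in the 3 untreated caMEK1 libraries. It read 98.0, 91.0 and 79.1 at day 2, then 35.5, 33.0 and 27.3 at day 4 and 18.0, 20.7 and 18.3 at day 7. No library of a later day reached the lowest library of an earlier one, and the day 7 difference was -2.71 ± 0.11, adjusted p = 5.26e-14 (limma).

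Under caMKK6 Rrm2 went from 126, 148 and 139 FPKM to 48.5, 41.6 and 48.3 at day 7, which was -1.56 ± 0.11, adjusted p = 6.03e-09 (limma). Here too no treated library reached the lowest untreated one, and the remaining level was 33.6% of untreated against 14.6% under caMEK1. The large subunit Rrm1 went from 35.7 to 7.72 ± 0.582 FPKM under caMEK1 and from 36.6 to 14.9 ± 1.07 under caMKK6. Thymidine kinase Tk1, which salvages thymidine, stood at 22.9% and 35.3% of untreated, and thymidylate synthase Tyms at 34.8% and 40.6%. Dut, which keeps uracil out of DNA, held more, at 59.6% and 58.5%.

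Of the licensing genes 10 fell and Cdt1 rose at day 7 of caMEK1, while 11 of 11 fell under caMKK6. The MCM subunits differed among themselves. Mcm5 kept 23.3% and Mcm3 26.8% of their untreated level under caMEK1, but Mcm7 kept 59.4%. Mcm4, the most abundant of the role, read 40.4, 42.0 and 32.6 FPKM untreated, 46.7, 45.0 and 39.0 at day 2, and 16.0, 18.0 and 17.6 at day 7. The day 2 libraries overlapped the untreated ones and all day 7 libraries lay below both, a difference of -1.11 ± 0.09 at day 7, adjusted p = 3.6e-09 (limma). The loaders Orc1 and Cdc6 went to 25.0% and 21.4% under caMEK1 and to 36.7% and 30.8% under caMKK6. Orc6 kept 66.6% and 70.6%, and its caMKK6 call was lost without untreated replicate 3 or day 7 replicate 2. Leaving out the libraries listing the MEK1 transgene, which left 1 untreated library, also lost the Orc6 call.

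Cdt1, the loader that geminin restrains, was the one member to rise under caMEK1. It read 10.6, 10.4 and 8.86 FPKM untreated, 12.8, 13.1 and 13.0 at day 2, 13.0, 12.0 and 11.6 at day 4 and 13.4, 11.6 and 10.1 at day 7. Day 2 and day 4 lay wholly above the untreated libraries, at 0.36 ± 0.09 (adjusted p = 0.00276) and 0.27 ± 0.09 (adjusted p = 0.0116, limma). Day 7 overlapped them, at 0.21 ± 0.09 with adjusted p = 0.0455, and that last call was lost with no filter, with either other scaling, and without untreated replicate 3 or day 7 replicate 1 or 2. The day 4 call was lost without untreated replicate 3 or day 4 replicate 1. Under caMKK6 Cdt1 read 9.30, 10.1 and 9.75 untreated and 5.03, 5.82 and 5.32 at day 7, with no overlap and a difference of -0.75 ± 0.09. Its partner Gmnn fell to 43.6% under caMEK1 and 63.3% under caMKK6. The caMKK6 call on Gmnn was lost without untreated replicate 3 or day 7 replicate 2. It was also lost without the libraries listing the MEK1 transgene, which left 1 untreated library.

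All 5 helicase activators fell under both kinases. Mcm10, which joins the helicase to the polymerase, went furthest under caMEK1, from 4.11, 4.31 and 3.66 FPKM to 0.912, 1.02 and 0.556. Gins2, the most abundant of the role, went from 17.2, 15.8 and 14.5 to 8.11, 6.57 and 5.01 FPKM, and Gins3 kept 62.3%. Exons of Gins2 are shared over 67.3% of their length with a gene on the other strand, and whether the counting used strand is not given in the sources used here.

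All 6 polymerase and primase genes fell under both kinases, to different degrees, with medians of -1.17 and -1.06. Pold1, the catalytic subunit of polymerase delta, went from 13.0, 11.03 and 10.5 FPKM to 5.29, 4.45 and 4.42 under caMEK1. The groups were far apart, at -1.13 ± 0.11, adjusted p = 5.36e-08 (limma). Pola1, which begins each new strand with primase, kept 23.7% and 36.4%, and its partner Pola2 78.7% and 59.5%. Pole, the leading-strand polymerase, kept 30.0% and 35.6%.

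All 7 genes of the clamp, its loader and the lagging strand fell under both kinases, and the clamp itself fell least but for Rfc3. Pcna read 72.3, 56.7 and 60.6 FPKM untreated and 48.2, 41.3 and 37.7 at day 7 of caMEK1, which left 67.0%, at -0.57 ± 0.12 with adjusted p = 0.000322 (limma). Lig1, which seals nicks between fragments, kept 33.9%, and Rfc5 of the clamp loader 32.8%. Fen1, the flap nuclease, kept 40.8%, with 78.8% of its exon length shared with a gene on the other strand.

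Among the G1/S regulators the E-type cyclins fell at day 7 and E2f1 did not pass the test. Ccne1 read 41.5, 37.8 and 31.9 FPKM untreated and 11.8, 10.1 and 10.9 at day 7 of caMEK1 (-1.67 ± 0.15, adjusted p = 7.18e-09, limma). Under caMKK6 it read 23.3, 25.1 and 31.2 and then 14.7, 10.8 and 16.5, again with no overlap, at -0.89 ± 0.15. E2f1, the activator of many of these genes, read 16.2, 14.7 and 13.4 FPKM untreated and 13.4, 11.8 and 14.4 at day 7 of caMEK1. The groups overlapped, and the difference of -0.15 ± 0.09 had an adjusted p of 0.152 (limma). Under caMKK6 its difference was -0.14 ± 0.09, adjusted p = 0.23. At day 4 E2f1 had fallen under both, by 0.24 with caMEK1 (lost without untreated replicate 1 or 2 or day 4 replicate 1 or 2) and by 0.35 with caMKK6.

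The 3 chromatin genes fell as well. Uhrf1, which keeps DNA methylation on the new strand, went from 23.1, 23.1 and 16.5 FPKM to 7.87, 8.24 and 5.76 under caMEK1. Chaf1b, which places histones on new DNA, kept 31.1% under caMEK1 and 45.7% under caMKK6. Slbp, which matures histone messages, kept 60.4% and 68.5%.

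The kinases were set against each other by subtracting their changes. Members called by limma in that difference were 0 at day 2 (23.5% of all genes, 14.7% higher and 8.8% lower, with 2 members at an unadjusted p under 0.05 and 0 by voom on recovered reads), 1 higher and 6 lower at day 4 (35.2%, 20.9% higher and 14.3% lower), and 2 higher and 7 lower at day 7 (37.8%, 23.3% higher and 14.5% lower). At day 2, 2 members passed with the replicate block within genotype, with median scaling or with quantile normalization, and 1 passed without replicate 3 of the untreated cells of either kinase or of caMKK6 at day 2. With that block the counts were 13 at day 4 (1 higher, 12 lower) and 19 at day 7 (2 higher, 17 lower). The day 4 count was 4 without untreated caMEK1 replicate 2 or caMEK1 day 4 replicate 3, and the day 7 count was 14 without untreated caMEK1 replicate 3. Scaling to a common median gave 1 higher and 14 lower at day 7, and quantile normalization 1 and 16.

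At day 7 the ribonucleotide reductase genes fell further under caMEK1, Rrm2 by 1.16 ± 0.15 (adjusted p = 4.86e-06, limma) and Rrm1 by 0.84 ± 0.12. The E-type cyclins also fell further, Ccne2 by 0.89 ± 0.28 and Ccne1 by 0.78 ± 0.21, as did Mcm10 by 0.46, Prim2 by 0.44 and Fen1 by 0.42. Cdt1 went the other way, at 0.96 ± 0.12 with adjusted p = 4.91e-06 (limma), and Pola2 stood at 0.29 ± 0.10. The calls on Mcm10, Pola2 and Fen1 were lost when the caMKK6 libraries with the MEK1 transgene were left out, which left 1 untreated caMKK6 library. Those on Ccne2, Prim2, Fen1 and Pola2 were each lost without some single libraries, day 7 replicate 3 of caMEK1 among them for Ccne2, Prim2 and Fen1. The calls on Rrm1, Rrm2, Cdt1 and Ccne1 were made under every setting and with every single library left out.

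Replication genes outside the 41 moved with them. Of 34 other replication factors 2 rose and 29 fell at day 7 of caMEK1, and 0 rose and 30 fell under caMKK6. The histone chaperone Asf1b went from 19.2 to 4.28 FPKM (-1.94) and the checkpoint mediator Clspn by -1.82 under caMEK1. Pold4, the smallest subunit of polymerase delta, rose from 9.27 to 21.5 FPKM there (1.13 ± 0.17, adjusted p = 7.93e-06, limma) and stood at 7.21 and 6.70 under caMKK6, a difference between kinases of 1.23, adjusted p = 0.000385. Of 14 other nucleotide genes 1 rose and 10 fell with caMEK1, Ctps furthest at -1.46, and 1 rose and 9 fell with caMKK6. The one to rise was Tk2, the mitochondrial thymidine kinase, from 4.53 to 8.65 and from 3.24 to 5.14 FPKM.

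Cell cycle lists fell with the 41 in part. All 18 mitosis genes fell under both kinases, with medians of -1.85 and -1.38. The median of 21 other G1/S, E2F and DREAM genes was only -0.30 and -0.26, with 5 up and 11 down under caMEK1 and 0 up and 10 down under caMKK6. The S-phase cyclin Ccna2 fell by 2.31 and 1.64. E2f8, an E2F repressor, went in opposite directions, from 4.78 ± 0.437 to 21.9 ± 1.01 FPKM under caMEK1 and from 4.16 ± 0.624 to 1.33 ± 0.443 under caMKK6. That difference between kinases was 3.14 ± 0.15, adjusted p = 5.77e-12 (limma). Its close relative E2f7 fell under both, by 1.39 and 1.16.

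Of 7 CDK inhibitor genes 3 rose and 1 fell with caMEK1, and 4 rose and 2 fell with caMKK6. Cdkn2a, which encodes p16 and p19, went from 35.6 to 254.5 FPKM under caMEK1 and from 64.2 to 188 under caMKK6. Cdkn1c went from 17.4 to 84.6 and from 10.6 to 74.9. Markers of other cells moved too, and their part in these results was not tested. The summed fibroblast list was 864 to 1135 FPKM in untreated caMEK1 libraries and 239 to 330 at day 7, where 2 of its 6 genes rose and 4 fell. Under caMKK6 it was 1076 to 1329 and 913 to 1409, and 1 rose and 2 fell. The macrophage list summed to 4.91 to 8.85 FPKM untreated and 9 to 23.3 at day 7 of caMEK1, and to 6.73 to 29.7 and 11.2 to 73.4 under caMKK6.

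**Figure D3:**
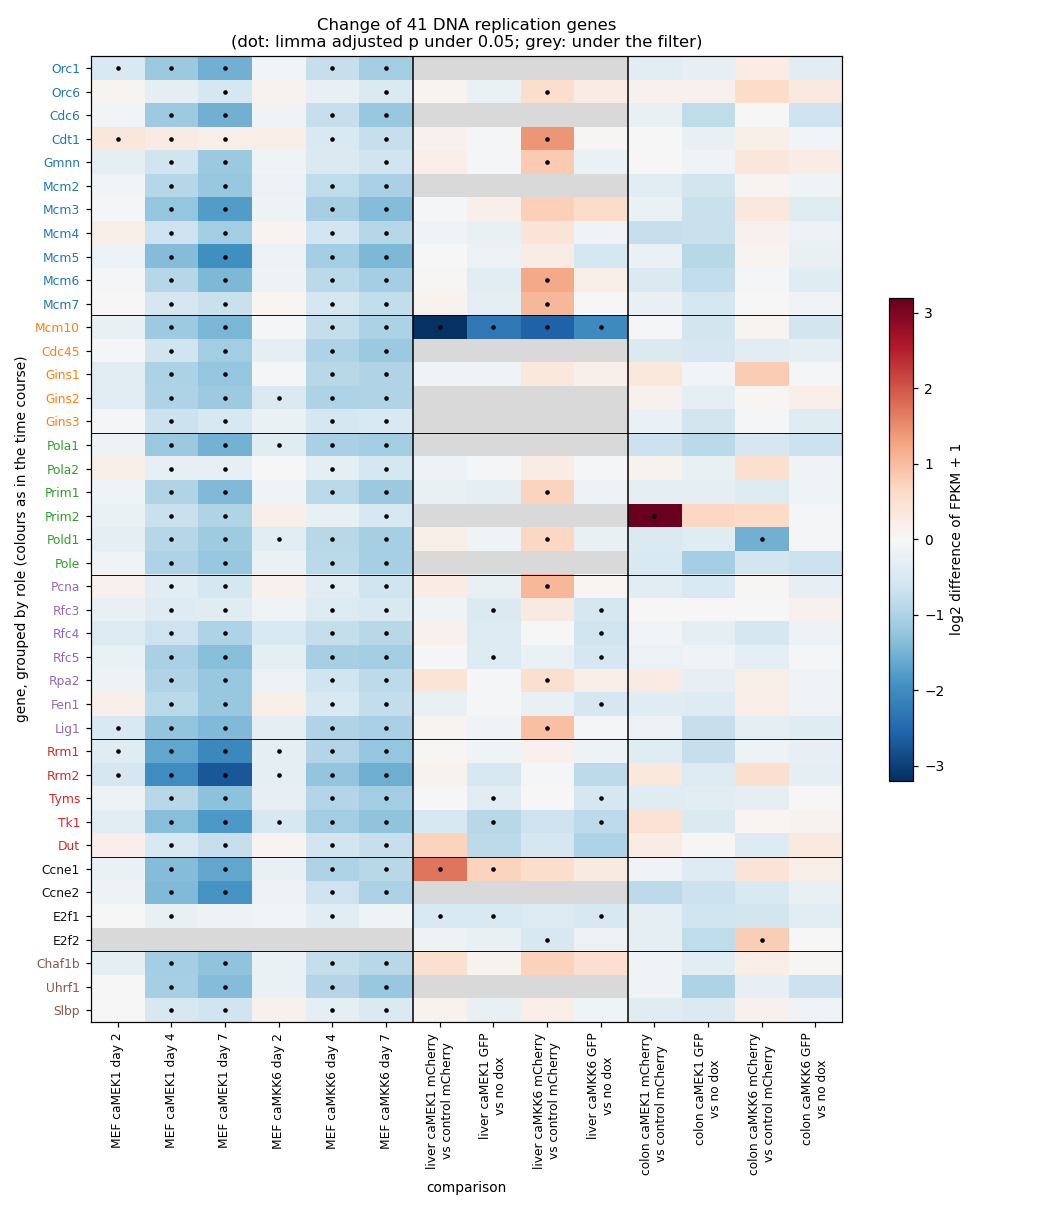
Log2 difference of FPKM + 1 for each of the 41 genes (rows, grouped and coloured by role) in 14 comparisons (columns), with a dot where limma's adjusted p is under 0.05 and grey where the gene was under the filter. The 6 MEF columns are blue almost throughout by day 4, while the caMKK6 mCherry column of liver holds 12 dots, 10 of them higher, and the GFP columns of liver 7 and 8. The Mcm10 row is dark blue in all 4 liver columns, and the colon columns hold only Prim2 for caMEK1 and Pold1 and E2f2 for caMKK6 mCherry cells.

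The promoters of the members were read for letters to which E2F factors are known to bind, since the members fell together. The windows, from RefSeq on build GRCm38.p6, run from 250 bases before to 50 after the transcript start, and 34 of 41 members matched one by symbol. The letters searched on both strands were TTTCCCGC, TTTCGCGC, TTTGCCGC and TTTGGCGC, whose matches can overlap. They occurred in 14 of 34 members (41.2%) and in 704 of 27025 genes with a window (2.6%). Of other cell cycle letters, the CHR element (TTTGAA or TTCGAA) was in 20.6% of members and 21.7% of all genes, and CCAAT in 58.8% and 41.1%. The median day 7 difference was -1.42 under caMEK1 and -1.09 under caMKK6 for the 13 tested members with the E2F letters, and -1.21 and -0.89 for the 20 without. A match is a run of letters and not a measured site.

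The 4 windows shown belong to Mcm6, Cdt1, Pold1 and Mcm10. Mcm6 had 3 matches, of which a pair overlaps, and Cdt1 was the member that rose under caMEK1. Pold1 fell in MEFs and in colon caMKK6 mCherry cells. Mcm10 had no match and led the change in liver. Its window ends in tttggcg, so a match to TTTGGCGC across that end would not have been seen. Prim2 had no window in the table. Capitals mark the E2F letters on either strand, and each sequence reads 5′ to 3′ on the gene's own strand. Mcm6 lies at chr1:128359656-128359955 on the minus strand, Cdt1 at chr8:122567765-122568064 on the plus strand, Pold1 at chr7:44548766-44549065 on the minus strand and Mcm10 at chr2:5012742-5013041 on the minus strand.
Mcm6: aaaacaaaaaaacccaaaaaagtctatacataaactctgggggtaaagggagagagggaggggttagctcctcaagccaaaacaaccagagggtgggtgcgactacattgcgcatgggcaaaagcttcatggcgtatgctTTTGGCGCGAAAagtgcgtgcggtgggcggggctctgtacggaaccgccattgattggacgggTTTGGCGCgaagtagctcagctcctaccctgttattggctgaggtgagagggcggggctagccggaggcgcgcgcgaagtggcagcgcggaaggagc
Cdt1: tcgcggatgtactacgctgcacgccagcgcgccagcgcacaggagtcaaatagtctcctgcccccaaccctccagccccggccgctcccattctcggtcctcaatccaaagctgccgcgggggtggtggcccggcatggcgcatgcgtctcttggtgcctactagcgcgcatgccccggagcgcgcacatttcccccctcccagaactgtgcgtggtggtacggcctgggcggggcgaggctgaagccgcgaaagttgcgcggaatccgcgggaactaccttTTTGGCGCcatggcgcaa
Pold1: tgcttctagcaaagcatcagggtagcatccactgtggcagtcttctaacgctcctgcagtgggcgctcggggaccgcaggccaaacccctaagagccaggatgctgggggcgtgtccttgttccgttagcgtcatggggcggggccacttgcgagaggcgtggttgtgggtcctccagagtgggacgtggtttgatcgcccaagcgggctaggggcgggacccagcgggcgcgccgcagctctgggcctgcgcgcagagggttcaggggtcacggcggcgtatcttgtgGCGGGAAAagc
Mcm10: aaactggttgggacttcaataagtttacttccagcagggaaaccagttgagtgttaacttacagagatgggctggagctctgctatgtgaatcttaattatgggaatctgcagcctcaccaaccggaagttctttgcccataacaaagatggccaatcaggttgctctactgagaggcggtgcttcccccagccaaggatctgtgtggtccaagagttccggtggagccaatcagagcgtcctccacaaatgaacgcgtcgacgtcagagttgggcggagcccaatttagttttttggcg

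In hepatocytes the leading change was in 1 gene. Mcm10 read 12.4 and 7.91 FPKM in control mCherry cells on doxycycline and 0.166, 0.208 and 0.316 in caMEK1 mCherry cells. Every caMEK1 library lay far below every control library, at -3.15 ± 0.28, adjusted p = 3.21e-07 (limma), on 745 to 1184 reads against 17 to 29. In caMKK6 mCherry cells Mcm10 read 0.631 and 1.04 FPKM, also wholly below the controls, at -2.58 ± 0.30, adjusted p = 1.86e-05.

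The GFP cells around them showed the same direction. Mcm10 read 5.40, 6.04 and 11.3 FPKM in caMEK1 GFP cells without doxycycline and 0.606, 0.636 and 0.829 with it (-2.28 ± 0.25, adjusted p = 7.76e-06, limma). In caMKK6 GFP cells it read 5.30, 9.04 and 8.44 without and 0.537 and 1.70 with doxycycline (-2.05 ± 0.28, adjusted p = 0.000159). Control GFP cells read 4.79, 6.70 and 5.84 without and 8.11 and 8.68 with doxycycline, so no control library was below 4.79 FPKM. The fall of Mcm10 in each of the 4 kinase comparisons was called under every setting and with every single library left out. No other annotated gene shares Mcm10 exons in GENCODE vM21.

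Beside these changes, lists of other cells moved in the GFP libraries, and their part in the result was not tested. The 6 macrophage markers summed to 36.5 to 333 FPKM in caMEK1 GFP cells on doxycycline against 19.7 to 30.7 without, and the 6 neutrophil markers to 11.6 to 57.9 against 0 to 0.120. In caMKK6 GFP cells the macrophage list was 27.3 to 129 against 8.33 to 76.5, and the neutrophil list 0.788 to 0.849 against 0.0235 to 0.399. In caMEK1 mCherry cells the macrophage list, at 9.92 to 19.4, overlapped the controls at 14.9 to 22.3, and the neutrophil list was 4.13 to 25.9 against 1.15 to 1.62. In caMKK6 mCherry cells the lists were 15.8 to 31.5 and 0.518 to 0.690.

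Most members were too low in liver to follow closely. Orc1, Cdc6, Mcm2, Cdc45, Gins2, Gins3, Pola1, Prim2, Pole, Ccne2 and Uhrf1 reached 1 FPKM in fewer than 2 libraries, which left 30 of 41 tested. Even Pcna had a median of 107 reads per library and Mcm7 of 114, against 464 for Mcm10. The 18 mitosis genes summed to 0.767 to 12.3 FPKM.

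In caMEK1 mCherry cells 1 member rose and 2 fell of 30, where 27.1% of all genes were called (10.7% higher, 16.3% lower), and the median of 0.03 lay near that of all genes, -0.04. Cyclin E1 (Ccne1) read 0.182 and 0.184 FPKM in controls and 3.09, 3.47 and 2.201 in caMEK1 mCherry cells. The groups were wide apart, at 1.71 ± 0.30, adjusted p = 0.000437 (limma), on 6 reads per control library against 70 to 116. E2f1 fell, from 0.511 and 0.725 FPKM to 0.292, 0 and 0.159 (adjusted p = 0.0264), a call lost without either control library or without caMEK1 replicate 2. Slbp, the most abundant chromatin gene in liver, read 1.13 and 0.9003 in controls and 1.19, 1.09 and 1.24 in caMEK1 mCherry cells, and was not called.

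In caMEK1 GFP cells Ccne1 read 0.0765, 0.432 and 0.324 FPKM without doxycycline and 1.07, 1.03 and 1.124 with it. The groups did not overlap, but the call (0.71 ± 0.27, adjusted p = 0.0444, limma) was lost under 5 of 7 other settings, where the adjusted p reached 0.147, and without any 1 library. It was the 1 member to rise there, and 6 fell, where 38.5% of all genes were called (6.46% higher, 32% lower). With Mcm10 these were the clamp loaders Rfc3 and Rfc5, Tyms, Tk1 and E2f1. Tk1 read 2.82, 2.72 and 1.56 FPKM without and 0.578, 0.851 and 0.924 with doxycycline, all lower, at -0.90 ± 0.25, a call lost against control GFP cells on doxycycline, where the adjusted p (limma) was 0.292. The members' median of -0.23 was close to the -0.25 of all genes, and scaling to a common median moved the latter to -0.02 and left 1 member higher and 3 lower, and quantile normalization left 0 higher and 6 lower. The count was 3 without untreated replicate 2 and 4 without doxycycline replicate 2.

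In caMKK6 mCherry cells 10 members rose and 2 fell of 30, where 38.2% of all genes were called (28.9% higher, 9.29% lower). Cdt1 rose most, from 0.488 and 0.364 FPKM in controls to 3.50 and 2.22, without overlap, at 1.42 ± 0.26 and adjusted p = 0.000752 (limma). Mcm6 went from 0.242 and 0.403 to 2.01 and 2.07 (1.21 ± 0.28), and Mcm7, the most abundant licensing gene in liver, from 1.79 and 1.49 to 4.08 and 5.06 (1.07 ± 0.23). All 4 caMKK6 values of these MCM genes lay above their controls. Pcna went from 2.28 and 2.35 to 5.77 and 6.01 (1.05 ± 0.21, adjusted p = 0.00132) and Lig1 from 0.340 and 0.210 to 2.01 and 1.07. Orc6, Gmnn, Prim1, Pold1 and Rpa2 were the others to rise, Prim1 from 0.521 and 0.591 to 1.07 and 2.11. Prim1, Pold1 and Lig1 passed the filter on low values only through the caMKK6 mCherry libraries, so they had to be high there to be tested, and the 10 are a description.

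This rise was measured in 2 libraries against 2 and moved with a shift of all genes. The median over members was 0.32 and over all genes 0.25, and scaling to a common median moved the latter to -0.02 and left 6 members higher and 4 lower, and quantile normalization 6 higher and 2 lower. Against untreated GFP cells of caMKK6 animals in place of control mCherry cells, 6 members were higher and 6 lower, with a median of 0.08 against 0.12 over all genes. Of the 12 calls 4 (Cdt1, Mcm6, Mcm7 and Mcm10) were made under every setting and with every library left out. Lig1 was called wherever it was tested, which was in 2 of 4 runs with a library left out. The count was 7 without either control library and 6 without caMKK6 replicate 1. E2f2, at 0.661 and 0.452 FPKM in controls and 0.0489 and 0.110 in caMKK6 mCherry cells, was called lower on 3 to 6 reads, and lost that call without any 1 library.

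In caMKK6 GFP cells 0 members rose and 8 fell, where 19% of all genes were called (5.21% higher, 13.8% lower). They were Mcm10, the clamp loaders Rfc3, Rfc4 and Rfc5, Fen1, Tyms, Tk1 and E2f1, and Tk1 overlapped between groups, with 3.199, 3.35 and 1.03 FPKM without and 0.463 and 1.36 with doxycycline. The member median was -0.17 against -0.07 over all genes. Without doxycycline replicate 2, which listed 30.9 FPKM of the MKK6 transgene, 13 were called (4 higher, 9 lower). Without replicate 1 the count was 1, without untreated replicate 1 4, and without untreated replicate 2 3.

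Next, mCherry cells were set against GFP cells of the same animals, as group means with no term for the animal. No member was called by limma for caMEK1 (4.71% of all genes, 3.75% higher and 0.955% lower, with 2 members at an unadjusted p under 0.05 and 0 by voom), 1 member passed with a replicate block for the animal, and 2 passed without mCherry replicate 3. For caMKK6 Cdt1, Prim1, Rfc3 and Lig1 were higher in mCherry cells (4.28% of all genes, 3.99% higher and 0.289% lower). Neither median scaling nor quantile normalization left any of them called, and the count was 1, 1 and 0 without mCherry replicate 1, mCherry replicate 2 or GFP replicate 2. Prim1 and Lig1 had passed the filter only through the caMKK6 mCherry libraries, so they had to be high there to be tested.

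Between the kinases, 2 members were higher and 11 lower in caMEK1 than in caMKK6 mCherry cells, where 31.7% of all genes were called (4.52% higher, 27.2% lower). Ccne1 was higher, as was Dut at 2.38, 7.82 and 0.868 FPKM against 0.363 and 0.854, a narrow separation that was lost without caMEK1 replicate 2 or caMKK6 replicate 1. The Ccne1 call was lost without caMKK6 replicate 2. Ccne1 itself differed between the caMKK6 animals, at 1.67 FPKM in mCherry and 1.27 in GFP cells of animal 5, and 0.134 and 0.0583 in animal 12. The 11 lower members were Orc6, Cdt1, Mcm4, Mcm6, Mcm7, Pola2, Prim1, Pold1, Pcna, Rfc3 and Lig1. Orc6 lost its call in 5 of 5 runs with a library left out, and Mcm4 in 4 of 5. Prim1, Pold1 and Lig1 had passed the filter only through the caMKK6 mCherry libraries. Pola2 had passed it with 2 libraries, 1 of them caMKK6 mCherry, and would not have been tested without that library. Scaling to a common median left 2 higher and 6 lower, moved the median of all genes from -0.31 to 0.01, and the count was 6 without caMKK6 replicate 1. With a replicate block for the animal 2 were higher and 9 lower, Orc6 and Pold1 being lost. In control GFP cells limma called 0 members with doxycycline (0.0868% of all genes, 0.0482% higher and 0.0386% lower), with 1 higher and 1 lower at an unadjusted p under 0.05 and 0 by voom.

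**Figure D4:**
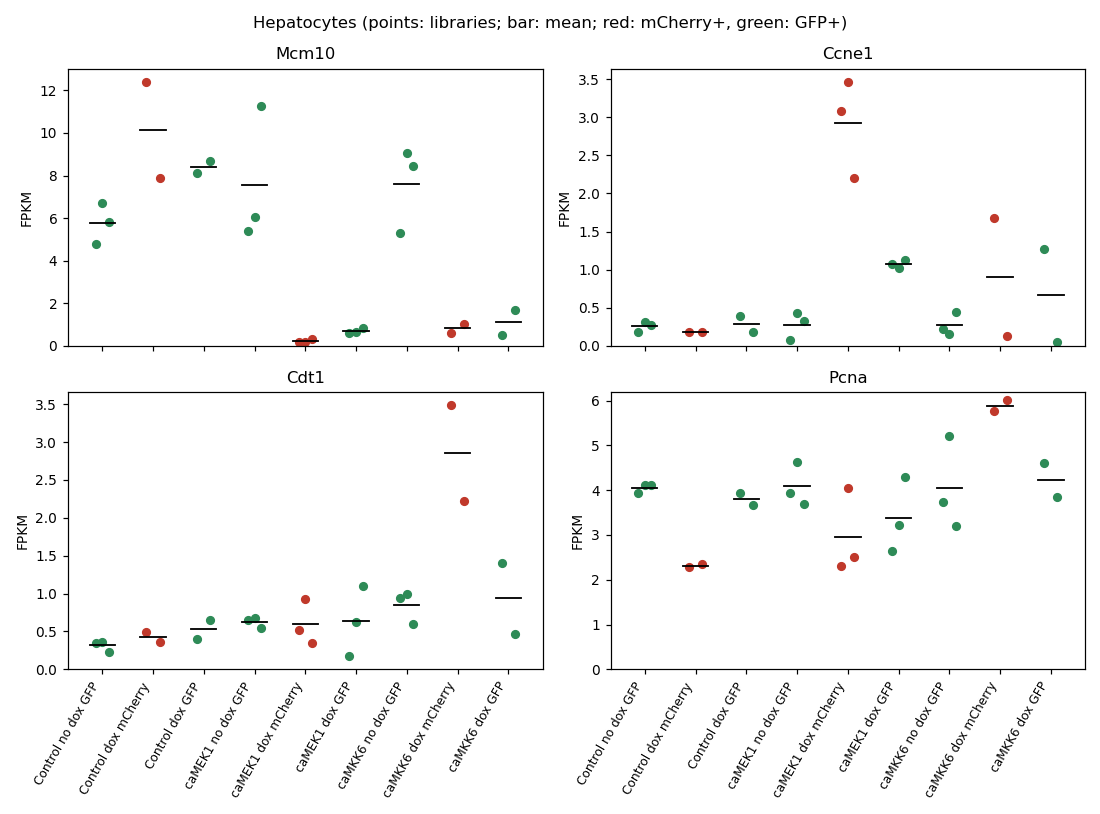
FPKM of Mcm10, Ccne1, Cdt1 and Pcna in the 23 hepatocyte libraries by group, with points for libraries, bars for group means, red for mCherry and green for GFP cells. All kinase groups on doxycycline sit at or below 1.70 FPKM of Mcm10 and all other groups at or above 4.79, while Ccne1 is high in caMEK1 mCherry cells and Cdt1 in caMKK6 mCherry cells.

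In colon epithelium, where replication genes were abundant, few members were called and 3 of them carried the differences. Prim2, the large subunit of the primase that starts each strand with RNA, read 1.74 and 2.83 FPKM in control mCherry cells and 18.3 and 43.1 in caMEK1 mCherry cells. Both caMEK1 libraries lay far above the controls, at 3.17 ± 0.37, adjusted p = 9.71e-06 (limma), on 891 to 2063 reads against 127 to 218. GFP cells of the same animals read 2.78 and 7.14, and all other colon libraries 1.28 to 4.57 FPKM. Prim1, the catalytic partner of Prim2, was not called, and Prim2 shares no exon with another annotated gene in GENCODE vM21.

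Prim2 was the 1 member to rise in caMEK1 mCherry cells and 0 fell, where 21.5% of all genes were called (9.54% higher, 12% lower). It was also the 1 higher member against GFP cells of the same animals (2.40 ± 0.37, adjusted p = 0.000339, 13.4% of all genes called, 5.71% higher and 7.72% lower). That comparison of colours used group means, and its count was 2 with a replicate block for the animal or without GFP replicate 2. Both Prim2 calls were made under every setting and with each single library left out. The members' median against controls was -0.22 and that of all genes -0.14. Beside Prim2, 6 goblet markers summed to 607 to 702 FPKM in caMEK1 mCherry cells against 1961 to 4708 in controls, 6 stem and Wnt genes to 39.1 to 40.1 against 99.6 to 171, and 6 absorptive genes to 6418 to 6486 against 4285 to 5208. The neutrophil list summed to 590 to 1012 against 1.80 to 8.03, almost all of it from 1 gene, Ly6g, at 799 ± 298 against 4.88 ± 4.35 (SD, n = 2 each). No colon library exceeded 3.83 FPKM of S100a9, 1.87 of S100a8, 0.391 of Csf3r or 0.0714 of Mpo, and Elane was at 0. The part of these lists in the result was not tested.

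In caMEK1 GFP cells no member was called by limma against untreated cells (1.33% of all genes, 0.91% higher and 0.425% lower, with 10 lower at an unadjusted p under 0.05 and 0 by voom), and 1 passed without untreated replicate 3 or doxycycline replicate 2. Their median was -0.45 against -0.02 over all genes, and 25 of 41 members lay lower in both libraries than in all 3 untreated ones, as did 25.5% of all genes tested. Mcm6, the most abundant licensing gene, read 31.9, 26.3 and 25.97 FPKM without and 13.51 and 18.2 with doxycycline. Pcna read 37.8, 30.2 and 24.01 without and 19.1 and 23.5 with it, and Uhrf1 23.4, 19.6 and 16.6 against 8.21 and 10.8. Each of these 3 was lower in every treated library, and none passed the adjustment. Control GFP cells on doxycycline also leaned lower, with 0 members called by limma (0% of all genes), 8 lower at an unadjusted p under 0.05, 0 by voom, a median of -0.48 and 14 of 41 wholly lower, against 20% of all genes tested. Without doxycycline replicate 2 of that control group 13 members were called lower.

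In caMKK6 mCherry cells 1 member rose and 1 fell against controls, where 20.8% of all genes were called (11.1% higher, 9.7% lower). Pold1 read 4.74 and 8.69 FPKM in controls and 2.48, 0.936 and 1.56 in caMKK6 mCherry cells. All 3 lay below the controls, at -1.53 ± 0.27, adjusted p = 0.000764 (limma), and below the GFP cells of the same animals, at 8.04, 7.22 and 7.70 (-1.74 ± 0.24, adjusted p = 9.57e-05). Both calls were made under every setting and with each library left out. Untreated caMKK6 cells read 7.87, 8.60 and 7.57. Beside these values, the goblet list summed to 5240 to 6343 FPKM in caMKK6 mCherry cells against 1961 to 4708 in controls, the stem and Wnt list to 68.0 to 98.9 against 99.6 to 171, and the neutrophil list to 28.0 to 46.7 against 1.80 to 8.03, again nearly all Ly6g at 37.7 ± 9.16. Their part in the result was not tested.

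E2f2, an activating E2F, rose from 7.61 and 12.3 FPKM in control mCherry cells to 17.7, 15.9 and 18.5. The groups did not overlap, at 0.78 ± 0.24 and adjusted p = 0.0283 (limma), but the call was lost without both libraries of animal 4, and without control replicate 1 or caMKK6 replicate 1 or 3. Against GFP cells of the same animals, at 9.496, 8.16 and 8.85, the difference of 0.90 ± 0.22 had adjusted p = 0.00652. Dut was lower there, at 14.2, 4.58 and 11.8 FPKM against 22.6, 15.6 and 19.2 in GFP cells (-0.96 ± 0.31, adjusted p = 0.0332), a call lost with no filter and without mCherry replicate 2 or GFP replicate 1 or 3.

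The counts around these genes were small. In mCherry against GFP cells of caMKK6 animals, compared as group means, 1 member was higher and 2 lower. There 21.3% of all genes were called (8.24% higher, 13.1% lower), and with a replicate block for the animal 1 member was higher and 7 lower. Without mCherry replicate 1 the same comparison gave 7 calls. Against controls quantile normalization gave 2 higher and 1 lower, and the count was 4 without control replicate 2, and 1 without control replicate 1 or caMKK6 replicate 1 or 3. In caMKK6 GFP cells no member was called by limma (2.6% of all genes, 1.31% higher and 1.29% lower, median -0.13 against -0.01), with 3 lower at an unadjusted p under 0.05 and 0 by voom. Between the kinases Prim2 and Pold1 were higher and E2f2 and Slbp lower in caMEK1 than in caMKK6 mCherry cells (20.7% of all genes, 8.56% higher and 12.1% lower). The Pold1 call was lost without caMEK1 replicate 2 and the E2f2 call without caMEK1 replicate 1. The Slbp call was lost under either other scaling, which left 2 higher and 1 lower, and the count was 2 without either caMEK1 library.

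Summed levels in colon varied between animals of 1 group. The summed level was 188 FPKM in GFP and 243 in mCherry cells of control animal 8, but 413 and 449 in control animal 13. In caMEK1 animals 5 and 7 it was 236 and 273 in GFP cells and 266 and 358 in mCherry cells. Of caMKK6 animals, animal 10 had 325 in GFP and 216 in mCherry cells, animal 11 had 392.2 and 402, and animal 4 had 441 and 457. Cdc45, the most abundant helicase activator, followed the animals, at 1.43 FPKM in mCherry cells of animal 10 and 4.11 and 3.97 in the others. Within groups, 815 of 820 pairs of members were positively correlated over the 23 colon libraries, with a median r of 0.70, against 771 of 780 in MEFs (0.59) and 305 of 435 in liver (0.19). The pairs share libraries and depth.

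**Figure D5:**
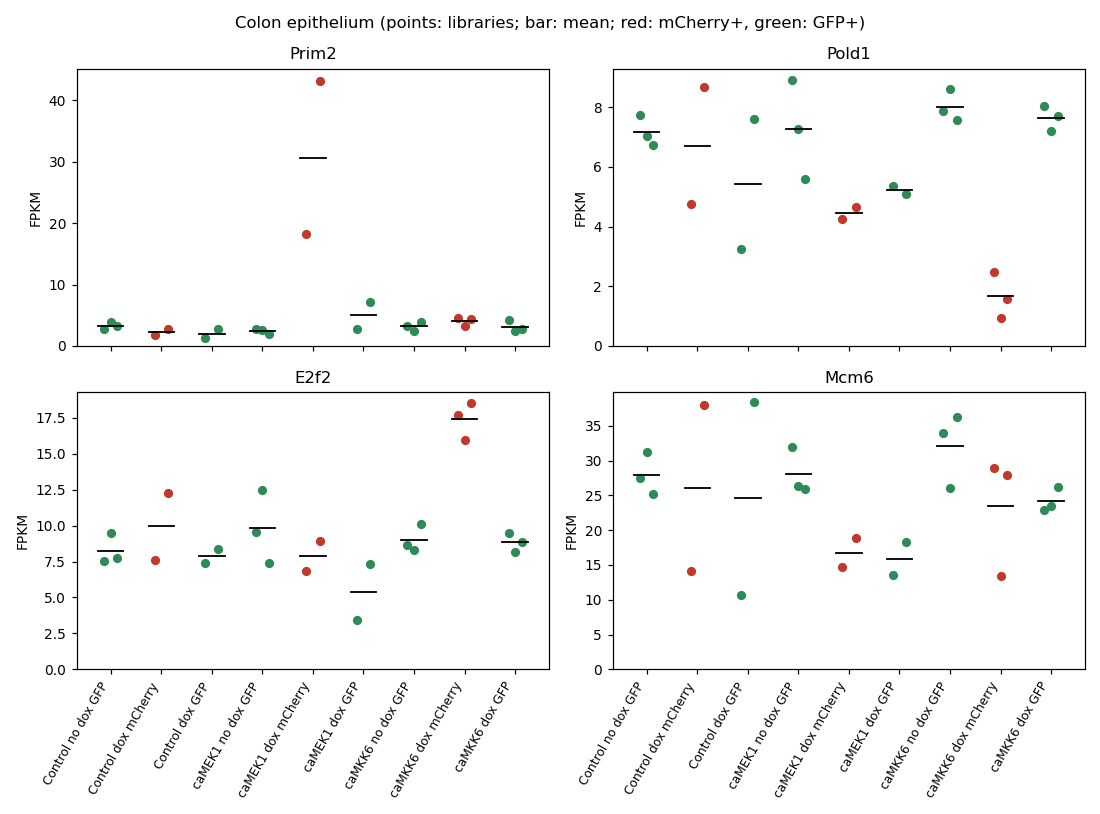
FPKM of Prim2, Pold1, E2f2 and Mcm6 in the 23 colon libraries by group, with points for libraries, bars for group means, red for mCherry and green for GFP cells. Prim2 stands at 18.3 and 43.1 in caMEK1 mCherry cells, Pold1 at 0.936 to 2.48 and E2f2 at 15.9 to 18.5 in caMKK6 mCherry cells, while Mcm6 varies widely within groups.

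The tissues were compared by subtracting the colon change from the liver change of mCherry cells. For caMEK1 Ccne1 was higher in liver by 1.83 ± 0.55, and Mcm10 and Prim2 lower, at -3.13 ± 0.41 and -3.05 ± 0.39, where 19.6% of all genes were called (9.64% higher, 9.94% lower). Prim2 read 0.248 to 0.573 FPKM in the control and caMEK1 mCherry libraries of liver, where it was under the filter. It entered the joint fit through colon, so its difference restates the colon rise and measures no liver change. The Ccne1 call was lost without liver control replicate 1 or 2, colon control replicate 2 or colon caMEK1 replicate 1, and without colon control replicate 1 the count was 6 (4 higher, 2 lower). For caMKK6 Cdt1, Mcm7, Prim1, Pold1, Pcna and Lig1 were higher in liver and Mcm10 and E2f2 lower, where 23.6% of all genes were called (16.4% higher, 7.13% lower). Pold1 differed most among the higher ones, at 2.195 ± 0.33, adjusted p = 1.63e-05 (limma). Its mean went from 0.350 FPKM in controls to 1.14 in liver and from 6.72 to 1.66 in colon. That difference therefore joins a liver rise at low levels and the colon fall.

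The caMKK6 count between tissues rested on single libraries. Median scaling and quantile normalization each left 3 higher and 2 lower. Without liver control replicate 1 or 2, colon control replicate 2 or colon caMKK6 replicate 2 it was 1 higher and 2 lower, without liver caMKK6 replicate 1 it was 4 in all, and without liver caMKK6 replicate 2 it was 5.

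Pold4, named above, rose with caMEK1 in tissues as well. It was at 49.8 ± 20.6 FPKM (SD, n = 3) in liver caMEK1 mCherry cells and 2.19 ± 0.720 (n = 2) in controls (3.91 ± 0.39, adjusted p = 1.35e-06, limma). In caMEK1 GFP hepatocytes it was 8.32 ± 1.88 against 2.57 ± 0.699 without doxycycline (adjusted p = 0.00503). In colon it was 33.8 ± 10.0 in caMEK1 mCherry cells and 4.42 ± 1.57 in controls (2.68 ± 0.37, adjusted p = 4.65e-05). The catalytic subunit Pold1 was not called in any of those 3 comparisons. In caMKK6 mCherry cells Pold4 was 5.28 ± 2.68 in liver and 5.41 ± 1.19 in colon and was not called.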

How the data were processed

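Bulk RNA-seq of 70 libraries was analysed from 1 table of FPKM deposited by the authors. Reads were trimmed with cutadapt 1.12 and aligned with STAR 2 to mm10, per the submitters' processing notes. The counter, its annotation and its use of strand are not given in the sources used here. RNA input was 100 ng for MEFs and 50 ng for sorted cells, per the labels' protocols.

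Whole reads were recovered from the FPKM steps with GENCODE vM21 exon lengths: 100% of values under 1000 reads were whole within 0.02 read. Such reads count no molecules, since no molecular identifiers are stated. Values were taken as log2(FPKM + 1), with the pseudocount 1, and fitted with limma 3.58.1 in R 4.3.3, 1 fit for each of MEFs, liver and colon and 1 joint fit for tissue differences. Genes needed 1 FPKM in 3 MEF libraries or 2 tissue libraries, which left 11347, 10371, 11542 and 12690 genes, and p-values were adjusted over all of them with a threshold of 0.05. The fits were tested on simulated data. Python 3.11.15 was used for summaries.

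The members and lists were chosen with earlier results of these data known. By the rule for named genes, all 41 may be named in their role, library values are given for the most abundant member of each role and for called members with the largest change or against the majority, and other genes come from the lists, up to 3 in each direction. Library values of Tk1, E2f1 and some other called members in liver and colon were shown after they had been seen. Alternatives were a pseudocount of 0.1, no filter, median scaling, quantile normalization, replicate blocks, another comparator and each library left out. Added after seeing the data were voom on recovered reads, leaving out the caMKK6 MEF libraries with more than 5 FPKM of the MEK1 transgene, leaving out colon caMKK6 animal 4, and the replicate block within genotype. Same-numbered MEF libraries deviated together within a genotype (r 0.259 to 0.766 for caMEK1 and 0.107 to 0.805 for caMKK6) and not across genotypes (-0.37 to 0.186), so the numbers were taken to pair samples within a genotype. Colours of 1 animal, paired by the labels, correlated at 0.467 to 0.82 in liver and 0.397 to 0.709 in colon. The main fits held no term for replicate number or animal, so neither pairing entered the reported tests. Only the replicate blocks used them.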

Additional observations from a re-analysis of the deposited data

Results flagged for a closer look

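The effects of the kinases on MEFs were compared by a test of the difference itself, caMEK1 change minus caMKK6 change. It called 7 of 40 members at day 4 and 9 at day 7, against 35.2% and 37.8% of all genes tested. At day 4 the log2 differences were 0.77 for Cdt1, -0.73 for Ccne2, -0.73 for Rrm2, -0.72 for Rrm1, -0.47 for Prim2, -0.43 for Cdc6 and -0.41 for Mcm10. Of these Ccne2 lost its call with a pseudocount of 0.1, no filter, voom or the replicate block and in 9 of 12 runs with a library left out, where limma's adjusted p reached 0.152. Cdc6 and Mcm10 lost theirs in 4 and 2 of the 12 runs, and Mcm10 also with a pseudocount of 0.1. Both were also lost without the caMKK6 libraries listing the MEK1 transgene, which left 1 untreated caMKK6 library. At day 7 they were 0.96 for Cdt1, 0.29 for Pola2, -1.16 for Rrm2, -0.89 for Ccne2, -0.84 for Rrm1, -0.78 for Ccne1, -0.46 for Mcm10, -0.44 for Prim2 and -0.42 for Fen1.

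The effect of a kinase in mCherry cells was compared between liver and colon, as liver change minus colon change. It differed in 3 of 41 members for caMEK1 and 8 for caMKK6, against 19.6% and 23.6% of all genes tested. For caMEK1 the differences were -3.13 for Mcm10, -3.05 for Prim2 and 1.83 for Ccne1. Prim2 entered that fit through colon, so its value restates the colon rise. For caMKK6 they were -2.68 for Mcm10, -1.30 for E2f2, 2.195 for Pold1, 1.27 for Lig1, 1.23 for Cdt1, 1.13 for Prim1, 1.08 for Mcm7 and 1.00 for Pcna.

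Outside the measured genes, 5 of the 12 caMKK6 MEF libraries listed the MEK1 transgene above 5 FPKM, at 10.96 to 16.5, while untreated caMEK1 libraries listed 1.94 to 4.04. They were untreated replicates 2 and 3, day 2 replicates 2 and 3 and day 4 replicate 2. Leaving them out left 1 untreated and 1 day 2 caMKK6 library. Lower counts in comparisons that use either group cannot be told apart from the loss of libraries. The step from day 4 to day 7 uses neither group.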

How the results depend on the processing

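Counts of called members at days 4 and 7 in MEFs kept within 1.5 times of the reported value under every setting but the omission of the caMKK6 libraries with the MEK1 transgene, which gave 24 at day 4. That omission gave 0 for caMKK6 at day 2, 8 from day 2 to 4 and 0 from day 4 to 7. It left 1 untreated and 1 day 2 caMKK6 library, so lower counts using either group cannot be told apart from the loss of libraries. For caMEK1 at day 2, 5 became 8 with median scaling, 9 with voom and 8 with the replicate block. With the replicate block within genotype it became 13. For caMKK6 at day 2, 6 became 17 with that paired fit and 5, mostly higher, with median scaling. From day 4 to 7 caMEK1 gave 9 with median scaling, 12 with quantile normalization, 8 with the replicate block and 23 within genotype, and caMKK6 1 with no filter and 17 within genotype. The kinase difference gave 2, 12 and 15 at days 2, 4 and 7 with median scaling, 2, 11 and 17 with quantile normalization, 2, 13 and 19 with the block within genotype and, at day 2, 1 with the replicate block.

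In liver, caMEK1 mCherry against control gave 5 with no filter and 6 against the other comparator, and caMEK1 GFP gave 4 with median scaling. Liver caMKK6 GFP gave 5 with either scaling, 4 with voom and 4 against the other comparator. Liver mCherry against GFP gave 1 for caMEK1 with a pseudocount of 0.1, quantile normalization or the animal block. For caMKK6 it gave 2 with a pseudocount of 0.1 and 0 with either scaling. Liver caMEK1 against caMKK6 gave 8 with either scaling. In colon the other comparator gave 2 for caMEK1 mCherry, 5 for caMKK6 mCherry and 1 for caMKK6 GFP, and the animal block 2 and 8 between colours. The caMKK6 tissue difference gave 5 with either scaling.

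With single libraries left out, MEF counts ranged from 4 to 9 (caMEK1 day 2), 2 to 6 (caMKK6 day 2), 1 to 8 and 0 to 4 (day 4 to 7), and 0 to 1, 4 to 10 and 6 to 14 (kinase difference at days 2, 4 and 7). Liver ranges were 3 to 6 and 1 to 13 (caMEK1 and caMKK6 GFP), 2 to 4 and 6 to 12 (mCherry), 0 to 2 and 0 to 4 (between colours) and 6 to 11 (between kinases). Colon ranges were 0 to 1 (caMEK1 GFP), 1 to 4 (caMKK6 mCherry), 1 to 2 and 2 to 7 (between colours), 2 to 6 (between kinases) and 0 to 13 (control doxycycline). Tissue differences ranged from 2 to 6 for caMEK1, 6 having more higher than lower calls, and 3 to 10 for caMKK6, 3 having more lower ones. Apart from changes that follow from fewer libraries or genes, the cause was not tested. Groups of 2 or 3 libraries limit all tissue results, and low counts limit liver.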
